A study of Mus musculus with 6 samples.

Results

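Genes of the triggering receptors expressed on myeloid cells (TREM) and of the signalling apparatus they share, 6 in all, were followed in macrophages exposed to cartilage. They are the receptors Trem1, Trem2 and Trem3, the adaptors Tyrobp (DAP12) and Hcst (DAP10), and the kinase Syk. They were chosen by gene symbol, as 6 of the 24394 symbols in the files. Bone marrow-derived macrophages (BMMs) were grown from marrow of wild type C57BL/6 mice at postnatal day 28, for 7 days in macrophage colony-stimulating factor at 50 ng/ml. The libraries were 3 of control BMMs, which received no cartilage, and 3 of BMMs that received crushed femoral head cartilage of the same mice at 5 cartilage fragments per macrophage for 24 h. Neither the labels nor the Methods say whether the 3 libraries of a group came from separate animals or cultures, so the p-values measure the spread between these libraries, which may be technical.

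TREM receptors have short cytoplasmic tails with no signalling motif of their own. They sit in the membrane beside Tyrobp, a small adaptor whose immunoreceptor tyrosine-based activation motif (ITAM), once phosphorylated by Src family kinases, recruits Syk. Hcst is the neighbouring adaptor of similar size and carries a motif that binds phosphoinositide 3-kinase instead. TREM1 is known in neutrophils and monocytes as an amplifier of cytokine production, and TREM2 in macrophages, microglia and osteoclasts as a receptor for lipids, lipoproteins and cell debris. Trem3 is an activating receptor of the mouse that also uses Tyrobp.

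The deposited values are FPKM, fragment numbers scaled to transcript length and library depth. Depth was 742835 to 776371 fragments in control libraries and 699237 to 754139 in stimulated ones, as derived from the coverage and FPKM in the files. The Methods state a far larger number of reads per sample, and all fragment numbers, their intervals and the limit that a count of 0 allows rest on the derived depth. One fragment of Trem1 or Trem3 therefore made a visible step in FPKM, and fragment numbers are given beside low values. All 7 macrophage markers were present. In 5 of them the groups overlapped, as in Csf1r at 569 to 639 FPKM in controls and 565 to 670 FPKM with cartilage, and 1 passed the test used below, Adgre1 at 350 to 373 and 524 to 566 FPKM (limma adjusted p = 0.00965). The Methods give male mice, whereas Xist, the RNA that coats an inactive X chromosome, was listed at 19.8 to 23.6 FPKM in all 6 libraries, with Uty, Kdm5d, Eif2s3y and Ddx3y of the Y chromosome at 0.

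Among the members, Tyrobp and Trem2 were abundant, Syk and Hcst intermediate, and Trem3 and Trem1 scarce. No member passed the threshold, a limma adjusted p under 0.05 over the 10393 genes that averaged 1 FPKM or more. Trem1 lay under that mean and was not tested. The count was 0 of 5 tested members, where 38 of all tested genes (0.366%) passed, 32 higher and 6 lower, and at that share a count of 0 among 5 genes is no result about them. At an unadjusted p under 0.05 from limma there were 3 of the 5 members (Trem2, Trem3 and Hcst) and 955 of all genes. In the same 3 genes the control and stimulated libraries did not overlap, lower with cartilage in Trem2 and higher in Trem3 and Hcst. Of all tested genes 15.9% had groups without overlap. When fragments estimated from the authors' coverage and scaled to the library took the place of FPKM, Hcst alone among the members passed, and 2.24% of all tested genes did.

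**Figure D1:**
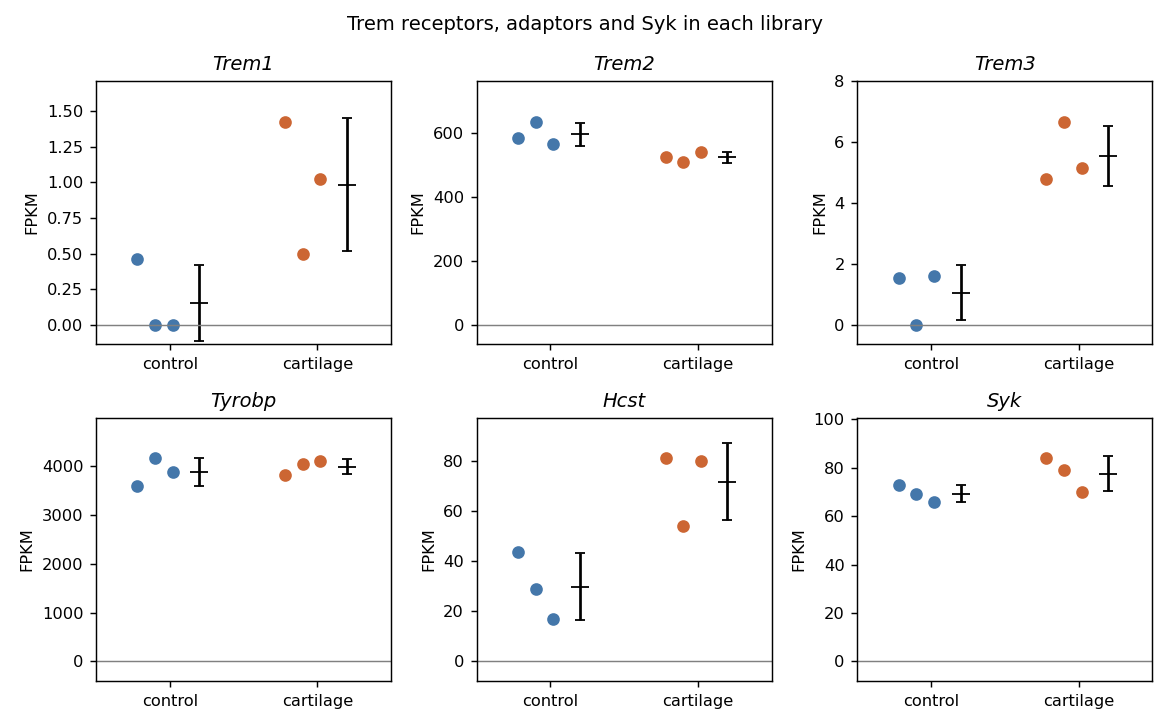
FPKM of the 6 genes in each library (points, vertical axes in FPKM), with the mean and SD of each group of 3 libraries beside them (bars). Stimulated libraries lie above the controls in Trem1, Trem3 and Hcst, below them in Trem2, and overlap them in Tyrobp and Syk.

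Trem2 (NM_031254 and NM_001272078, chr17:48346401-48352276, plus strand, mm10) was by far the most abundant Trem receptor of these cells. Its FPKM was 583, 635 and 566 in control libraries 1 to 3 and 523, 507 and 541 in stimulated libraries 1 to 3. All 3 stimulated libraries thus lay below the lowest control. The means were 595 ± 35.8 and 524 ± 16.8 FPKM (SD, n = 3), for a log2 fold change of -0.18 (SE 0.063, limma adjusted p = 0.419), which does not pass. The direction was the same in all 19 alternative settings, with log2 fold changes of -0.23 to -0.13, and none of them passed. Over each group the gene had 1194 and 1004 fragments. Corrected for depth the ratio was 0.880, with an exact 95% interval of 0.808 to 0.957 that covers counting error only.

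Both annotated transcripts made up the Trem2 values, and they differ at the start of exon 4. NM_001272078 carries 55 additional coding bases there (chr17:48351691-48351745, GENCODE vM21 on GRCm38), which shift the reading frame so that its stop codon lies at chr17:48352033-48352035 in place of chr17:48352022-48352024. The boundary is shown because the split of Trem2 FPKM between the transcripts rests on fragments that touch it. Capitals mark the additional bases, with 30 bases of the neighbouring sequence on each side.
NM_001272078: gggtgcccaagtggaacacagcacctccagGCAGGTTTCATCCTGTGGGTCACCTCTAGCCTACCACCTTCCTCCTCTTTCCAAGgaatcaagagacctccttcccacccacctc
NM_031254: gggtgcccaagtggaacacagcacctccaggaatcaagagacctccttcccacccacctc

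The longer form held 13.0%, 15.4% and 10.8% of Trem2 FPKM in control libraries 1 to 3 and 18.7%, 0% and 14.9% in stimulated libraries 1 to 3. In stimulated library 2 Cufflinks placed all of the gene on NM_031254, so the groups overlap for this share. The reference form NM_031254 ranged from 505 to 537 FPKM in controls and from 426 to 507 FPKM with cartilage. Which form a fragment belongs to is an estimate wherever it does not reach the boundary.

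**Figure D2:**
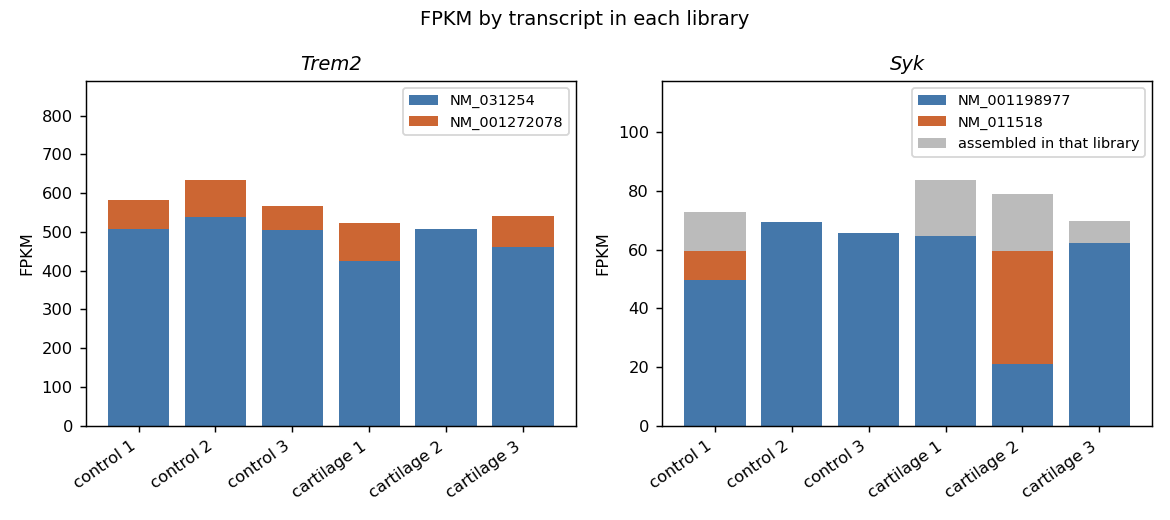
FPKM of each transcript of Trem2 and Syk, stacked, in the 6 libraries (vertical axes in FPKM from 0). Stimulated library 2 has no NM_001272078 of Trem2 and the most NM_011518 of Syk, 38.5 FPKM.

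Trem1 (NM_021406, chr17:48232739-48246924, plus strand) was at the edge of detection. It was listed at 0.461, 0 and 0 FPKM in control libraries 1 to 3 and at 1.43, 0.496 and 1.03 FPKM in stimulated libraries 1 to 3. These values stand for 1, 0 and 0 fragments in the controls and 3, 1 and 2 fragments in the stimulated libraries. The highest control and the lowest stimulated library differ in FPKM (0.461 and 0.496) but hold 1 fragment each. Every stimulated library held at least as many fragments as any control, and no library held more than 3, the number that a count of 0 allows (1.39 to 1.54 FPKM), so no fold is given. With 3 libraries against 3 an exact two-sided permutation test cannot give a p under 0.1, and Trem1 gave that smallest value.

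Trem3 (NM_021407, chr17:48247729-48258847, plus strand) had 1.54, 0 and 1.61 FPKM in the controls and 4.80, 6.67 and 5.16 FPKM in the stimulated libraries. Control libraries held 1, 0 and 1 fragments and stimulated libraries 3, 4 and 3, so the groups were apart on a total of 2 against 10 fragments. Corrected for depth the ratio of the totals was 5.23, with an exact 95% interval of 1.11 to 49.1 from counting error. The fitted log2 fold change of 3.09 (SE 1.07, limma adjusted p = 0.418) depends on the constant added before the logarithm and ranged from 1.74 to 4.23 over the alternatives, with none past the threshold. The lowest of these values came with control library 2, the library listed at 0, left out.

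Neutrophils are known for high Trem1 and Trem3. Of 10 neutrophil markers 9 were listed, and Mpo and Elane among them averaged under 1 FPKM. The markers summed to 877 to 1023 FPKM in controls and 834 to 1187 FPKM with cartilage, so the groups overlap. The largest were S100a8 (250 to 382 FPKM in controls, 333 to 454 FPKM with cartilage) and S100a9 (429 to 469 FPKM and 329 to 502 FPKM). Their part in the Trem1 and Trem3 values was not tested.

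Trem1, Trem3 and Trem2 lie in one cluster on chromosome 17 with the Trem-like genes, all on the plus strand. Of the 5 other cluster genes chosen for comparison, Treml1, Treml2 and Treml4 were listed and tested, and Treml6 and Trem5 were not among the symbols of the files. By limma 0 of the 3 passed in FPKM (0.366% of all genes did) and 0 in scaled fragments (2.24%), with 1 at an unadjusted p under 0.05 in FPKM. Treml4, a receptor of myeloid cells beside Trem3, had groups apart, at 3.41, 5.27 and 3.59 FPKM in controls and 7.997, 17.5 and 8.61 FPKM with cartilage. Its 14 control and 37 stimulated fragments gave a depth-corrected ratio of 2.76 (exact 95% interval 1.46 to 5.54, counting error only), and its log2 fold change was 1.38 (SE 0.354, limma adjusted p = 0.219). Treml2 had 0.931 to 1.21 FPKM in controls and 1.25 to 2.35 FPKM with cartilage, where control library 1 and stimulated libraries 1 and 2 held 4 fragments each, so that the groups are not apart in fragments. Treml1, known from platelets, had 1.62 to 5.08 FPKM in controls and 0 to 3.13 FPKM with cartilage, from totals of 5 and 3 fragments.

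**Figure D3:**
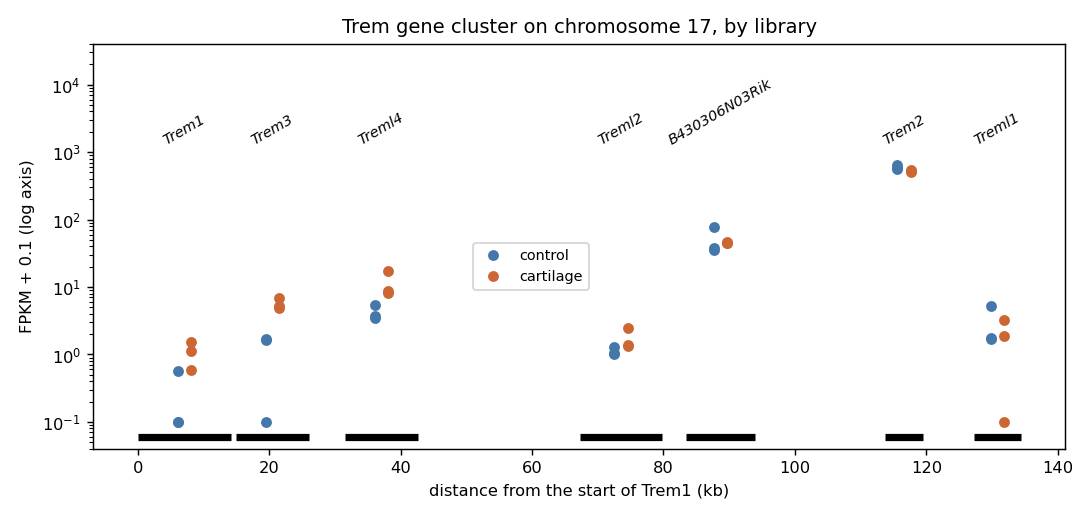
FPKM plus 0.1 on a log axis for each gene of the Trem cluster by library, against the distance from the start of Trem1 in kb (black bars mark the genes). Trem3 and Treml4 have every stimulated library above every control, as do Trem1 and Treml2 in FPKM but not in fragments, where the groups tie. Trem2 has every stimulated library below, and Treml1 and B430306N03Rik, the latter added after its values were seen, overlap (15.9% of all tested genes had groups without overlap).

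RefSeq promoters were given for Trem1 and Trem2 of this cluster, and both are shown because the genes lie in one cluster at very different levels. Each is the 250 bases before the start (GRCm38.p6). Capitals mark GAGGAA or its reverse complement, a core that the myeloid factor PU.1 is known to bind, and TGANTCA, the core of AP-1 sites, where a script found them. The letters GAGGAA occur on either strand in 23.3% of the 32851 promoters of this length and TGANTCA in 6.75%, and the 2 motifs share no base here.
Trem1 (chr17:48232489-48232738, plus strand): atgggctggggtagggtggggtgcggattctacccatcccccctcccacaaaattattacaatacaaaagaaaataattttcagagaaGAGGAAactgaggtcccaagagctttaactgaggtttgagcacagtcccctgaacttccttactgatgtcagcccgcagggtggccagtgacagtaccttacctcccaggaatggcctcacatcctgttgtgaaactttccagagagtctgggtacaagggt
Trem2 (chr17:48346151-48346400, plus strand): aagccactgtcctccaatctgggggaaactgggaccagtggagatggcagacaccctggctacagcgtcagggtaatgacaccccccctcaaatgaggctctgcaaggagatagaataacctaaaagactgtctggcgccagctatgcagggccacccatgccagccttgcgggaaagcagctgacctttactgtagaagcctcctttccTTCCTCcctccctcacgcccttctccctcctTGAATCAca

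The Trem1 window held 1 GAGGAA match, and the Trem2 window held 1 GAGGAA match and 1 TGANTCA match next to the start. A match is a description of the letters, and the files hold no binding data.

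Tyrobp (NM_011662, chr7:30413788-30417579, plus strand), the adaptor of all 3 receptors, had 3596, 4161 and 3888 FPKM in the controls and 3814, 4047 and 4099.5 FPKM with cartilage. The groups overlapped, with control library 1 lowest and control library 2 highest. The means were 3881 ± 283 and 3987 ± 152 FPKM (SD, n = 3), and the log2 fold change was 0.04 (SE 0.056, limma adjusted p = 0.855). The gene had 991 to 1118 fragments per library, and the depth-corrected ratio of the group totals was 1.03 (exact 95% interval 0.976 to 1.08, counting error only). In control library 2 and stimulated libraries 1 and 2 the FPKM lies above the confidence limits that Cufflinks lists beside it, for example 4161 FPKM against limits of 2486 and 2915 FPKM. In the other 3 libraries the limits enclose the value.

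The adaptor exceeded its receptors several-fold on the FPKM scale. Tyrobp FPKM divided by the summed FPKM of Trem1, Trem2 and Trem3 was 6.14, 6.55 and 6.85 in control libraries 1 to 3 and 7.20, 7.86 and 7.49 in stimulated libraries 1 to 3. All 3 stimulated libraries lay above the controls, at 6.51 ± 0.354 and 7.52 ± 0.332 (SD, n = 3), where the sum is nearly all Trem2. The difference of the mean log2 ratios was 0.21 (exact two-sided permutation p = 0.1, the smallest that 3 against 3 can give). Trem1 came to 0.079%, 0% and 0% of Trem2 FPKM in the controls and to 0.273%, 0.0978% and 0.189% with cartilage (exact permutation p = 0.1 for the log2 ratio). These shares rest on the 1 and 6 Trem1 fragments of the groups.

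Hcst (NM_011827, chr7:30417712-30419854, minus strand) is the member with the largest difference among those with more than a few fragments. It had 43.8, 28.8 and 17.1 FPKM in control libraries 1 to 3 and 81.2, 54.2 and 80.1 FPKM in stimulated libraries 1 to 3. The lowest stimulated library lay above the highest control, but the confidence limits that Cufflinks lists are wide and overlap between the groups. They were 10.5 to 77.1 FPKM in control library 1 and 12.6 to 72.7 FPKM in stimulated library 2. All 3 stimulated values lay nearer the upper limit, such as 81.2 FPKM against limits of 24.2 and 90.9 FPKM in stimulated library 1. The means were 29.9 ± 13.4 and 71.8 ± 15.3 FPKM (SD, n = 3), for a log2 fold change of 1.34 (SE 0.331, limma adjusted p = 0.204), which does not pass. Behind these values stand 7.9, 5.1 and 3.0 estimated fragments in the controls and 14.2, 9.1 and 13.0 with cartilage, since the transcript is only 442 bases long. Summed to 16 and 36 fragments, they gave a depth-corrected ratio of 2.35, with an exact 95% interval of 1.27 to 4.54 from counting error.

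The call for Hcst depends on the unit. Of the 19 alternatives 1 passed, scaled fragments taken over the full length of the transcript (log2 fold change 1.33, limma adjusted p = 0.0384, where 2.24% of all genes passed). Over the effective length, which allows for the size of a fragment and was added after the values were seen, the adjusted p was 0.140 from limma (2.31% of all genes passed). Across the 19 the adjusted p ran from 0.0384 to 0.526 and the log2 fold change from 0.99, without control library 3, to 1.66, without control library 1.

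Hcst and Tyrobp lie tail to tail on chromosome 7, with 132 bases between their 3′ ends. The libraries were made with a stranded kit, and whether the quantification used strand is not given in the sources used here. Hcst came to 1.22%, 0.693% and 0.4403% of Tyrobp FPKM in the controls and to 2.13%, 1.34% and 1.95% with cartilage, and whether fragments of one gene were counted to the other was not tested. T and NK cells also use Hcst, beside the receptor NKG2D. Of 8 markers of those cells, 7 were at 0 in all 6 libraries, and Klrb1c was listed at 0.58 FPKM in stimulated library 2 alone. NKG2D itself (Klrk1) was at 0 throughout. The promoter of Hcst is shown as that of the member with this difference, and it held 0 matches to either motif.
Hcst (chr7:30419855-30420104, minus strand, GRCm38.p6): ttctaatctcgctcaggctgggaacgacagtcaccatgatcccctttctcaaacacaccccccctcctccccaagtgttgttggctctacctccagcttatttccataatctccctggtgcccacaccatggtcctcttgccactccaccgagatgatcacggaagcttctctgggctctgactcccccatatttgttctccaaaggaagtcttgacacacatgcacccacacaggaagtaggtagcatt

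Syk (chr13:52583437-52648792, plus strand) encodes the kinase that binds the phosphorylated ITAM. Counting the transcripts that Cufflinks assembled within its locus, it had 72.9, 69.3 and 65.8 FPKM in controls and 83.9, 79.1 and 69.8 FPKM with cartilage. Stimulated library 3 lay within the range of the controls, so the groups overlapped. The means were 69.3 ± 3.53 and 77.6 ± 7.16 FPKM (SD, n = 3), for a log2 fold change of 0.16 (SE 0.115, limma adjusted p = 0.720). The lines that carry the name Syk gave 59.6, 69.3 and 65.8 FPKM in controls and 64.5, 59.4 and 62.2 FPKM with cartilage. On those lines alone the log2 fold change was -0.06 (limma adjusted p = 0.859), so the sign depends on the assembled transcripts. They were present in control library 1 and in all 3 stimulated libraries, at 7.58 to 19.7 FPKM.

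The 2 named transcripts of Syk begin at different first exons. NM_001198977 (start chr13:52583437) had 49.8, 69.3 and 65.8 FPKM in controls and 64.5, 20.9 and 62.2 FPKM with cartilage. NM_011518 (start chr13:52596882) was listed at 9.86 FPKM in control library 1, at 38.5 FPKM in stimulated library 2 and at 0 in the other 4. Stimulated library 2 was also the library without the longer Trem2 form, and no group difference can be read from 1 library. The sequences before both starts are shown because they are the alternative promoters of this split. The upstream window has 71.6% G or C, against a median of 52.4% over all promoters, and held 0 motif matches. The downstream one has 47.6% and held 1 GAGGAA match near its start.
Syk, NM_001198977 (chr13:52583187-52583436, plus strand): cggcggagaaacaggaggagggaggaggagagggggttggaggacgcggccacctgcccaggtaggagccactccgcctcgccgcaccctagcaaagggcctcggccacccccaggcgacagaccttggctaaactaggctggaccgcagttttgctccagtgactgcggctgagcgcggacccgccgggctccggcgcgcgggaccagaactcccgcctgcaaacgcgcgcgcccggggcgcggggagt
Syk, NM_011518 (chr13:52596632-52596881, plus strand): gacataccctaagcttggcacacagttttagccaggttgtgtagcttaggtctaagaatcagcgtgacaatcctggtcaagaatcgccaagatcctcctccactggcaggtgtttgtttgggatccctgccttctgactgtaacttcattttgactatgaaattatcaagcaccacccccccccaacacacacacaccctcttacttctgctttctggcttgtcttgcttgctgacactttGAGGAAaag

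By mean FPKM the order was Tyrobp, Trem2, Syk, Hcst, Trem3 and Trem1. Tyrobp, Trem2 and Syk stood apart from each other in every library. Syk and Hcst were apart in the controls, where Hcst FPKM was 0.260 to 0.601 of that of Syk. With fragments the ratio was 0.685 to 1.15, so these neighbours did not differ beyond their spread there. Trem3 FPKM was above Trem1 FPKM in 5 libraries, both were at 0 in control library 2, and neither gene had more than 4 fragments in a library.

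Likeness across the 6 libraries was measured as Pearson's r of log2(FPKM + 0.1), over 5524 genes averaging 10 FPKM or more. Trem1 was nearest to Ebi3, a cytokine subunit (r = 0.98), Prkcb (r = 0.97) and Tuba1c (r = 0.97). Trem2 was nearest to Pcnp (r = 0.98), Rell1 (r = 0.97) and Rab11a (r = 0.97), and Tyrobp to Rpp25l (r = 0.97), Spata2 (r = 0.96) and Zdhhc13 (r = 0.96). The points are the same 6 libraries of unequal depth. Each r is among the 3 highest of 5524 genes over 6 points, so it is high by selection and no relation is read from it. Trem1 rests on 0 to 3 fragments in a library.

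Many other myeloid receptors pair with Tyrobp. Of 15 such genes 14 were listed and 8 tested. By limma 0 of the 8 passed in FPKM (0.366% of all genes did) and 4 had an unadjusted p under 0.05 (9.19% of all genes). In scaled fragments 2 passed, 1 higher and 1 lower (2.24% of all genes). Clec5a, an activating C-type lectin, had 12.9, 11.2 and 14.0 FPKM in controls and 23.2, 22.0 and 22.5 FPKM with cartilage. Its log2 fold change was 0.83 in FPKM (limma adjusted p = 0.123) and also 0.83 in scaled fragments (limma adjusted p = 0.00728). Cd300lb, which signals through Tyrobp as well as by its own tail, had 187, 202 and 189 FPKM in controls and 150.2, 139.6 and 152 FPKM with cartilage. The log2 fold change was -0.39 in FPKM (limma adjusted p = 0.123) and -0.40 in scaled fragments (limma adjusted p = 0.00170). Both genes had groups that did not overlap.

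Among the others, Pilrb1, the activating partner in a receptor pair, had 0.833 to 4.95 FPKM in controls and 10.4 to 14.1 FPKM with cartilage (log2 fold change 2.23, limma adjusted p = 0.222). Pilrb2 had 2.54 to 8.11 and 5.42 to 10.5 FPKM, and the closely related sequences of the Pilr genes leave the split of fragments among them uncertain. Cd200r4 had 18.2 to 27.8 FPKM in controls and 9.68 to 18.0 FPKM with cartilage (log2 fold change -0.80, limma adjusted p = 0.423). Cd300e had 0 to 1.49 and 1.54 to 5.62 FPKM, from 3 and 12 fragments. Control library 1 and stimulated library 1 held 2 of its fragments each, so its groups are not apart in fragments. Sirpb1b had 13.8 to 21.7 FPKM in controls and 22.0 to 24.5 FPKM with cartilage (log2 fold change 0.30, limma adjusted p = 0.722). Its relative Sirpb1a had 8.81 to 12.9 and 7.21 to 11.6 FPKM. Siglech and Cd200r3 had at most 1 fragment in a library. Siglec15, Klrk1, Klra4 and Klra8 were listed at 0 in all 6 libraries, and Sirpb1c was not among the symbols of the files.

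The other ITAM adaptor of macrophages, Fcer1g, which serves Fc receptors, had 1046, 975 and 1050 FPKM in controls and 1168, 1234 and 1042 FPKM with cartilage. The groups overlapped (log2 fold change 0.16, standard error 0.069, limma adjusted p = 0.535). Tyrobp FPKM was 3.44 to 4.27 times that of Fcer1g in controls and 3.26 to 3.93 times with cartilage. Cd247, the adaptor of T and NK cells, was listed at 0 in all 6 libraries.

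**Figure D4:**
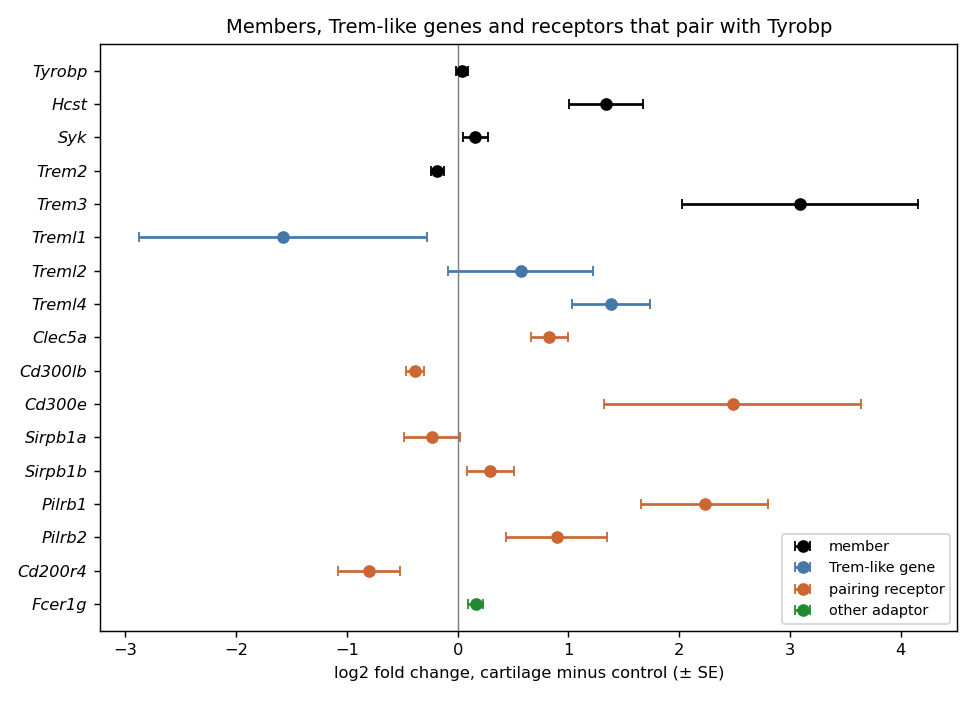
Log2 fold change (cartilage minus control, on log2(FPKM + 0.1)) of the 5 tested members, 3 Trem-like genes, 8 receptors that pair with Tyrobp and Fcer1g, with the standard error from limma as bars. None passed the adjusted threshold in FPKM, and the widest bars belong to genes with few fragments such as Trem3 and Treml1.

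Around these receptors 6 further lists were followed, so that 84 of 99 chosen genes were tested over all 9 lists. In FPKM 4 of the 84 passed (4.76%, against 0.366% of all genes), 2 higher and 2 lower, and in scaled fragments 10 were higher and 4 lower. The median log2 fold change of the 84 was 0.04 and that of all genes 0.004. These lists were drawn up with earlier results of the same libraries known, so the share is a description.

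Among 6 ligands of TREM receptors 4 were tested, and by limma 1 passed in FPKM (25.0%, against 0.366% of all genes). Lgals3 encodes galectin-3, described as a TREM2 ligand, and was lower, with a log2 fold change of -0.36 (limma adjusted p = 0.0104) with groups that did not overlap. It passed in 14 of 19 alternatives. Among the other 5 it lost the threshold without stimulated library 1 (limma adjusted p = 0.0641) or 2 (0.0539), from reference transcripts alone (0.529) and without trend or robust moderation (0.556). The highest log2 fold change was that of Hmgb1, an alarmin linked to TREM1 (0.38, limma adjusted p = 0.418). Pglyrp1, the peptidoglycan recognition protein that binds TREM1, had 5.67 to 16.4 FPKM in controls and 2.97 to 14.2 FPKM with cartilage, named here after its values were seen. Apoe of this list, also named after its values were seen, had 20276 to 21012 FPKM in controls and 15582 to 18398 FPKM with cartilage. Its log2 fold change was -0.30 (limma adjusted p = 0.104), and it passed in 2 of 19 alternatives.

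Of 9 genes that cut receptors at the membrane, the sheddases and gamma-secretase, all were tested and by limma 0 passed in FPKM, with 1 at an unadjusted p under 0.05 and 1 past the threshold in scaled fragments (0.366%, 9.19% and 2.24% of all genes). Adam17, a protease that sheds TREM2, had 62.7, 60.4 and 59.5 FPKM in controls and 89.4, 74.4 and 82.0 FPKM with cartilage. The groups were apart, at a log2 fold change of 0.42 in FPKM (limma adjusted p = 0.242) and 0.43 in scaled fragments (limma adjusted p = 0.00676). The lowest value of the list was that of the gamma-secretase subunit gene Aph1b, at -0.28 with overlapping groups.

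In the list of 24 signalling genes that act with or after Syk, 0 passed by limma in FPKM, 4 had an unadjusted p under 0.05 and 2 passed in scaled fragments (0.366%, 9.19% and 2.24% of all genes). Fgr, a Src family kinase, had 31.2, 31.3 and 33.4 FPKM in controls and 54.9, 50.9 and 43.8 FPKM with cartilage (log2 fold change 0.63, limma adjusted p = 0.140 in FPKM and 0.00440 in scaled fragments). The groups of Fgr did not overlap. Malt1, of the CARD9 signalling complex, had the highest value of the list in FPKM (log2 fold change 0.65) and Vav2, a guanine nucleotide exchange factor, the lowest (-0.54), and neither passed. The log2 fold change of Vav2 ran from -0.81 to 2.10 over the alternatives, so that its sign turned. The median of the 24 was 0.06.

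Of 15 inhibitory receptors and other brakes 14 were tested. Pilra, the inhibitory partner of Pilrb1 in the paired receptors, rose from 4.91, 5.61 and 4.28 FPKM in controls to 29.6, 21.2 and 19.4 FPKM with cartilage. Its log2 fold change was 2.21 (SE 0.232, limma adjusted p = 0.00965), from 26 and 121 fragments, and the threshold was lost in 1 of 19 alternatives, without stimulated library 1 (limma adjusted p = 0.0614). Cbl, a ubiquitin ligase that targets Syk, passed in scaled fragments (log2 fold change 0.72, limma adjusted p = 0.0133) and not in FPKM (0.31, limma adjusted p = 0.670), where the groups overlapped. Cbl passed in 1 of 19 alternatives, and its log2 fold change ran from -6.74 to 0.72 over them, so that the sign turned. The related ligase Cblb had the lowest value, -0.61 in FPKM (limma adjusted p = 0.520). Lilr4b had the highest fitted value, but it was listed at 0 in control libraries 1 and 3 and stimulated library 3 and at 437 to 702 FPKM in the others, so that no change is read from it.

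Microglial genes linked to TREM2, not all of them known to depend on it, formed a list of 15, all tested. Their median log2 fold change was -0.14, and 10 of the 15 were lower in mean. In 5 genes the stimulated libraries all lay below the controls and in 1 above, as they did in 6.89% and 9.04% of all tested genes. Fabp5, a fatty acid binding protein, fell from 1412, 1538 and 1495 FPKM to 1186, 1188 and 1205 FPKM (log2 fold change -0.31, limma adjusted p = 0.0388), and passed in 10 of 19 alternatives. Among the other 9 it lost the threshold with any 1 of the 6 libraries left out (limma adjusted p up to 0.231), from reference transcripts alone (0.12) and without trend or robust moderation (0.599). Spp1 (osteopontin) had a log2 fold change of 0.21 in FPKM (limma adjusted p = 0.198) and passed in scaled fragments (limma adjusted p = 0.0423). Gpnmb, a lysosomal and membrane glycoprotein, passed in scaled fragments (log2 fold change -0.31, limma adjusted p = 7.42e-10). In FPKM its log2 fold change was -0.63 (limma adjusted p = 0.550) with overlapping groups. Control library 1 (3861 FPKM) lay far below the other controls (6325 and 6473 FPKM). Gpnmb passed in 1 of 19 alternatives, and its log2 fold change ran from -10.7 to 0.25 over them, so that the sign turned.

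Cytokine genes that TREM1 is known to amplify formed a list of 8, of which 6 were tested, all 6 with a higher mean and 5 with the stimulated libraries all above the controls (50.5% and 9.04% of all tested genes). Their median log2 fold change was 2.68. Among the 5, Ccl2 was apart in FPKM (0 to 4.32 and 4.50 to 14.1) but not in fragments. Its control library 1 and stimulated libraries 1 and 3 held 2 fragments each. Il1b rose from 2.32, 2.39 and 2.42 FPKM to 14.4, 15.0 and 15.5 FPKM (log2 fold change 2.60, standard error 0.218, limma adjusted p = 0.00283). It passed in all 19 alternatives, although on 6 and 36 fragments, 2 in each control and 12 in each stimulated library. Corrected for depth the ratio of the totals was 6.28, with an exact 95% interval of 2.62 to 18.2 from counting error. The standard error measures the spread between libraries with equal counts, and the alternatives reuse these counts, so neither covers counting error. The paper, which compared the groups with Cuffdiff at a q-value under 0.05, reports no upregulation of Il1b with cartilage fragments. Tnf (log2 fold change 1.76 in FPKM, limma adjusted p = 0.0818) and the chemokine gene Cxcl2 (2.76, limma adjusted p = 0.102) passed in scaled fragments, with adjusted p of 0.000132 and 0.000990 from limma. The highest fitted value was that of Cxcl3, on 2 and 25 fragments (limma adjusted p = 0.219), and the lowest that of Ccl3 (0.18). Il6 was listed at 0 in all 6 libraries. TREM1 itself stood at 1 and 6 fragments in the same libraries.

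**Figure D5:**
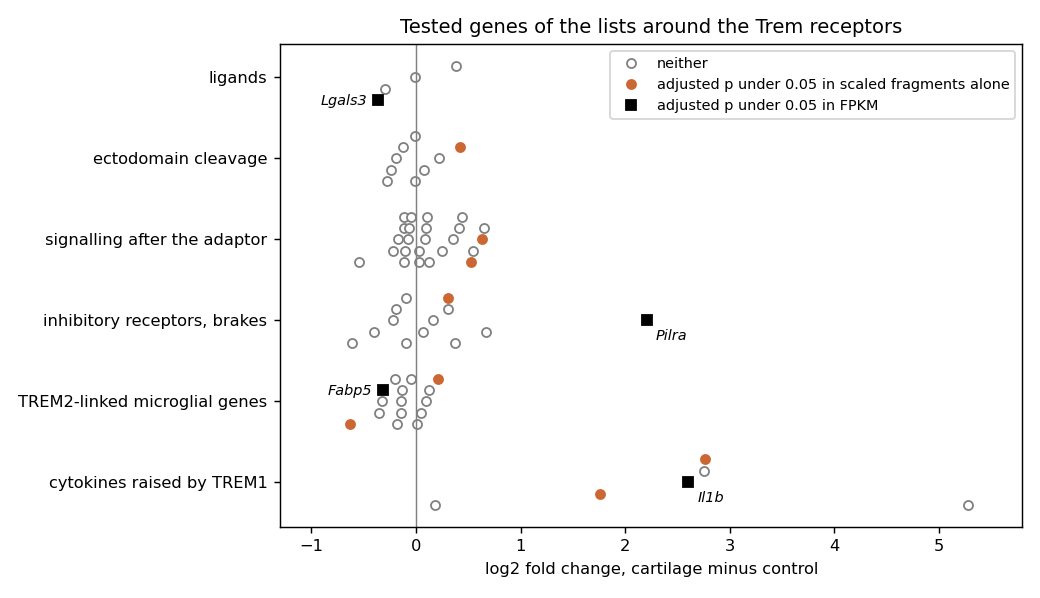
Log2 fold change (cartilage minus control, on log2(FPKM + 0.1)) of the tested genes of 6 lists, 1 point a gene, spread vertically for view. Black squares passed an adjusted p of 0.05 from limma in FPKM (Lgals3, Pilra, Fabp5 and Il1b), orange points passed in scaled fragments alone, and Lilr4b is left out because it was listed at 0 in 3 libraries.

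Markers of other cell types, the cartilage cells among them, were followed in the same libraries. Of 10 chondrocyte markers 5 were at 0 in all 6 libraries, Matn1, Matn3, Col9a1, Hapln1 and Prg4, and the summed level of the list was 1.54 to 4.22 FPKM in controls and 1.18 to 2.82 FPKM with cartilage. Fibroblast markers summed to 155 to 169 FPKM in controls and 103 to 119 FPKM with cartilage, and osteoclast markers, of cells also known for TREM2 and Tyrobp, to 324 to 337 and 271 to 292 FPKM. Calcr of the osteoclast list was at 0 throughout. Dcstamp and Ocstamp of that list, and Lum and Pdgfra of the fibroblast list, averaged under 1 FPKM. In both sums the stimulated libraries were lower, as in Trem2. The osteoclast sum was mostly Atp6v0d2 (274 to 290 FPKM in controls, 210 to 223 FPKM with cartilage). Acp5 of that list was higher (26.0 to 27.1 FPKM in controls, 41.6 to 55.1 FPKM with cartilage), and Ctsk overlapped. The fibroblast sum was mostly Col1a1 (74.4 to 87.4 and 43.6 to 50.7 FPKM) and Col1a2 (71.8 to 86.4 and 56.4 to 62.6 FPKM). The part of such cells in the Trem2 values was not tested. Of 6 dendritic cell markers 2, Flt3 and Cd209a, were at 0 throughout, and the list summed to 0.75 to 2.20 FPKM in controls and 0.49 to 2.72 FPKM with cartilage. In bulk RNA, fewer cells of a type and less RNA per cell cannot be told apart.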

How the data were processed

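RNA-seq libraries were 3 of control and 3 of cartilage-exposed BMMs, each counted as 1 sample of its group. The authors aligned paired-end reads of 100 bases to mm10 with TopHat and Bowtie and quantified each library with Cufflinks, without versions in the sources used here. The deposited FPKM and their confidence limits are given per transcript, reference or assembled in that library, and the deposited coverage is the mean read depth beside each FPKM. The Methods also name TMM and a removal of low FPKM, and low FPKM were still in the files.

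FPKM were summed per gene symbol. Assembled transcripts were added to the one symbol that shares their locus, which among the members touches Syk alone, and those with no single symbol (203 to 252 per library, 7.03% to 10.4% of FPKM) were left out. Fragments per gene were estimated from coverage, length and the 100-base reads, and library depth from the ratio of coverage to FPKM. Effective length was 0.990 times the length less 205.5 bases, fitted to transcripts of 1 fragment. With it, 94.7% to 95.6% of values of up to 8 fragments came within 0.1 of a whole number. The depth of 699237 to 776371 fragments per library limits the precision of scarce genes, and intervals and the 3-fragment limit for a count of 0 cover counting error only.

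Genes averaging 1 FPKM or more were tested as log2(FPKM + 0.1) with limma 3.58.1 in R 4.3.3 (lmFit, eBayes with trend and robust), two-sided, Benjamini-Hochberg over all tested genes, threshold 0.05. The procedure was tested on simulated data. Ratios were compared with exact permutation tests in scipy 1.17.1. Alternatives changed the pseudocount, filter, scaling, unit, transcripts used, moderation, weights and replicate block, or left out each library.

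The members and lists were chosen with earlier results of these data known. Named are all members, the Trem-like genes, Tyrobp-pairing receptors and other ITAM adaptors, and of the other lists the genes past the threshold in FPKM or scaled fragments and the highest and lowest log2 fold change, apart from 1 that is not reported here. Genes outside this rule were named after their values were seen. Positions follow the files (mm10), their starts moved up by 1 base. Promoters are from RefSeq (GRCm38.p6), which matched 4 of the 6 members, and exons from GENCODE vM21 on GRCm38, the same build. The replicate numbers recur in both groups, and neither the labels nor the Methods pair them.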

Additional observations from a re-analysis of the deposited data

How the results depend on the processing

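The count of members past the threshold was 0 under all settings except scaled fragments, where it was 1 (Hcst). No call among the members was lost, as none was made. Directions turned in 2 cases, neither past the threshold. The log2 fold change of Syk was -0.064 from reference transcripts alone, which leaves out the assembled ones, and that of Tyrobp was -0.013 without control library 1. Trem3 could not be tested at a mean of at least 5 FPKM, and Trem1 was tested with no filter alone (limma adjusted p = 0.587). Leaving out 1 library at a time, the log2 fold change ran from -0.22 to -0.13 for Trem2, from 1.74 to 3.79 for Trem3, from -0.013 to 0.092 for Tyrobp, from 0.99 to 1.66 for Hcst and from 0.10 to 0.23 for Syk. The difference in log2 ratio ran from 2.22 to 3.53 for Trem1 to Trem2 and from 0.17 to 0.24 for Tyrobp to the summed receptors.

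The pathway lists, with 4 genes past the threshold, gave 14 in scaled fragments and 14 over the effective length, and 2 from reference transcripts alone, without trend or robust moderation, and with the replicate block. Leaving out 1 library gave 1 to 5. Over all genes, 38 became 233 in scaled fragments (163 higher, 70 lower, with 37 of the 38 among them), 240 over the effective length (163 higher, 77 lower), 19 from reference transcripts alone, 18 without trend or robust moderation and 18 with the replicate block. Leaving out 1 library gave 9 to 30, with the lowest count without stimulated library 1. The causes were not tested. The same-numbered libraries did not deviate together (correlations of -0.093, 0.067 and 0.030), so the replicate block rests on a shared number alone. With it Lgals3 and Fabp5 did not pass (limma adjusted p = 0.0614 and 0.122).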
